A study of Mus musculus with 2 samples.

Results

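The genes described here encode the intraflagellar transport (IFT) particles and the cytoplasmic dynein-2 motor. They were followed in mouse mandibular prominences, the facial swellings that form the lower jaw. A gene was included if its symbol in both expression tables equalled 1 of 34 listed names. Of these names, 31 were found among 30723 gene symbols, and all 31 passed a filter of a mean of 1 FPKM or more (fragments per kilobase of transcript and per 1000000 mapped fragments), as did 12259 genes in all. The names Ift22, Ift43 and Ttc30a2 were not used as symbols in the tables. Ift22 is the present name of Rabl5, which is among the 31. The positions given for 1700019E19Rik are those of Ift43, and the line for Ttc30a1 extends across Ttc30a2, as described further on.

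The study held 1 library per group, each from the mandibular prominences of 10 embryos pooled before sequencing. The mutant embryos carried the genotype Kif3a f/f ; Wnt1-Cre, in which the floxed gene for the kinesin-2 subunit Kif3a is removed in cells that express Cre under Wnt1 control, the neural crest and its descendants. The other pool is labelled control, with no further genotype. Both pools had a mixed CD1 background and were labelled E11.5. However, the names of the deposited tables give e11 for the mutant and e11.5 for the control, with separate sequencing runs. Those names carry CD1 for the control only. Genotype, run and any difference in stage or strain therefore cannot be told apart. The libraries held about 24500000 fragments in the mutant and 24700000 in the control, rounded. With 1 library per group there was no test between conditions, and p-values are not given. Intervals in parentheses are 95% Clopper-Pearson counting intervals on approximate fragment numbers, and they leave out the variation between embryos and library preparations. For folds of FPKM they were moved onto the FPKM ratio, so they also leave out error in assigning fragments to transcripts.

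Intraflagellar transport moves cargo along the axoneme of the cilium. Kinesin-2 carries trains of IFT-B and IFT-A complexes from the base to the tip, and dynein-2, which travels out as cargo, carries them back. IFT-B is needed to build cilia. IFT-A and dynein-2 are needed for return traffic, and IFT-A also for entry of membrane proteins. In vertebrates the GLI proteins of the Hedgehog pathway are processed at the primary cilium in a manner that depends on this traffic. The comparison asks whether transcripts of the transport machinery differed in prominences whose neural crest lacked one of its motor subunits.

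Kif3a itself stood at 5.39 FPKM in the mutant library and 11.46 FPKM in the control library, which left 0.471 of the level in control tissue (0.431 to 0.514). The tissue also contains epithelium, muscle precursors, endothelium and blood, in which Wnt1-Cre does not act, and the value covers the whole transcript. Markers of these tissues were not equal in the pools. The summed FPKM of 5 erythroid markers was 6931 in the mutant and 23957 in the control, that of 4 muscle precursor markers 3.55 and 20.8, that of 5 endothelial markers 32.3 and 47.5, that of 6 epithelial markers 124 in the mutant and 106 in the control, and that of 7 mandibular mesenchyme markers 567 in the mutant and 625 in the control. Members of a list did not always share a direction. Of the epithelial markers 5 were higher in the mutant, but Krt5 was lower, at 8.81 FPKM in the mutant and 15.2 in the control. Of the mesenchyme markers 3 were higher and 4 lower. The summed FPKM of 4 neuronal markers was 7.32 in the mutant and 10.5 in the control. No marker of these lists was at 0 in either library. In bulk tissue, fewer cells of a type and less RNA per cell cannot be told apart, and the part of tissue composition in the values below was not tested.

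None of the 31 transport genes differed by 2-fold in FPKM between the libraries. Of the 12259 genes 2.13% did, with 0.767% higher in the mutant and 1.36% lower. At so low a share, a set of 31 genes with none past 2-fold is not set apart. On fragment numbers Dync2h1 alone passed this threshold, as described further on. The difference of a gene is given as a log2 ratio, log2((mutant FPKM + 1) / (control FPKM + 1)). It ranged from -0.56 for Dync2li1 to 0.25 for Ttc26. The median was -0.14 over the 31 genes and -0.13 over all genes, so that 15 genes lay above the median gene and 16 below it. Ratios below 0 were found for 22 of the 31, against 67.9% of all genes. Values were used as deposited. Scaling both libraries to a common total FPKM moved the median of all genes to a log2 ratio of 0.39 and left 1 of the 31 below 0, so directions are also given relative to the median gene. All but Dync2li1 lay between the 10th and 90th percentiles of all genes, at -0.47 and 0.28. A counting interval wholly below 1 was found for 15 of the 31, against 48.6% of all genes, and wholly above 1 for 3, against 18.8%. The median fold of all genes was 0.902. Set against that value, the interval lay wholly above it for 8 genes (32.0% of all genes) and wholly below it for 5 (29.3%). The 8 were Wdr19, Wdr35, Ttc21b, Ift74, Ttc26, Ift80, Ift172 and Dync2h1. The 5 were Tulp3, Ift27, Dync2li1, Dynll1 and Dynlrb1.

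**Figure D1:**
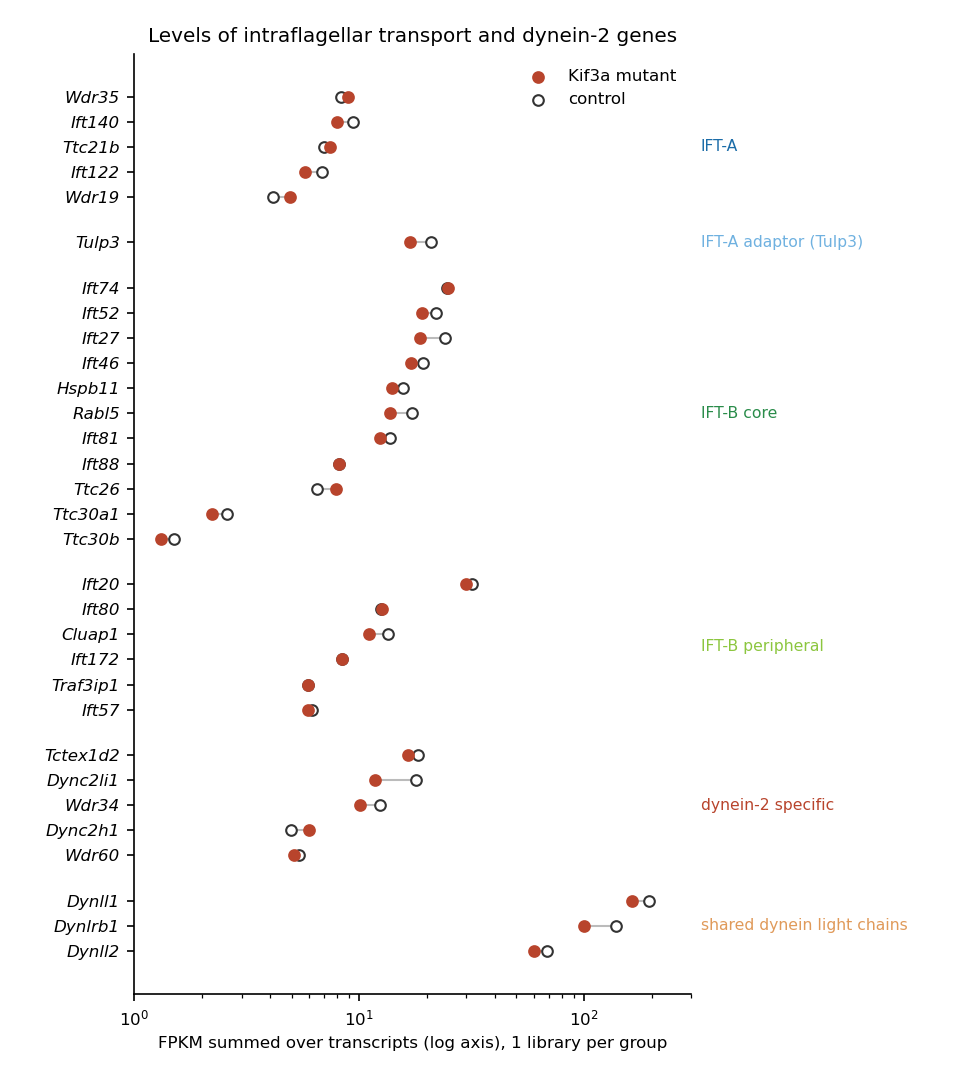
Level of each of the 31 genes in the Kif3a mutant library (filled circles) and the control library (open circles), as FPKM summed over the transcripts of a gene on a log axis, grouped by subcomplex and ordered by the mutant level. The shared dynein light chains stood at 60.2 to 164 FPKM in the mutant and 68.6 to 195 in the control, above every IFT and dynein-2 specific gene, and the order of levels was nearly the same in both libraries.

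The order of levels among the genes was largely kept between the libraries. Across the 31 genes the Spearman correlation of levels between the libraries was 0.982, a description over genes of the same 2 libraries. Levels are compared per length, in FPKM. The median was 7.42 FPKM in the mutant and 6.99 in the control for IFT-A, 13.7 and 15.6 for the IFT-B core, 9.73 and 10.4 for the peripheral IFT-B subunits, and 10.04 in the mutant and 12.4 in the control for the subunits specific to dynein-2. The light chains that dynein-2 shares with other complexes stood far higher, with a median of 100.3 in the mutant and 138 in the control. Genes of a single complex differed in level. The Ift74 transcript, for example, stood at 24.8 FPKM in the mutant and 24.7 in the control, while Ift81, whose product pairs with that of Ift74 to bind tubulin, stood at 12.4 and 13.8.

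IFT-A was represented by 5 of its 6 subunits, which went in both directions. Wdr19, a core subunit, stood at 4.91 FPKM in the mutant and 4.13 in the control, 1.19-fold higher (1.06 to 1.33). Wdr35 had 8.93 FPKM in the mutant and 8.27 in the control, and Ttc21b 7.42 and 6.99, and the intervals of both included 1. Ift140 and Ift122, which belong to the same core as Wdr19, were lower. Ift140, the most abundant of these 5 genes in the control, had 7.9966 FPKM in the mutant and 9.36 in the control, 0.854 of the control value (0.789 to 0.924). Ift122 had 5.73 FPKM in the mutant and 6.84 in the control, 0.837 of the control value (0.751 to 0.933). The median log2 ratio of the 5 was 0.08, with 3 above and 2 below the median gene. The sixth subunit, Ift43, is listed under its older symbol 1700019E19Rik, on chromosome 12 from 86082561 to 86162459. Its value was looked up after the other IFT-A values were seen. It stood at 11.9 FPKM in the mutant and 17.4 in the control, 0.685 of the control value (0.580 to 0.808), and its log2 ratio of -0.51 was lower than those of the other 5 IFT-A genes. Its transcript has only 809 bases. Once the trend of ratios with transcript length, described further on, was subtracted, Ift43 had -0.20 and Ift140 was lower at -0.24. With Ift43 the IFT-A median was -0.06. Tulp3, the adaptor through which IFT-A brings membrane receptors such as Gpr161 into the cilium, stood at 16.9 FPKM in the mutant and 20.9 in the control, 0.811 of the control value (0.757 to 0.869).

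The IFT-B core counted 11 measured genes with a median log2 ratio of -0.14, of which 4 lay above and 7 below the median gene. Ttc26, which in the mouse is needed for normal ciliary length and Hedgehog signalling, was the highest of all 31 genes. It had 7.89 FPKM in the mutant and 6.48 in the control, 1.22-fold higher (1.102 to 1.35). Ift27, a small GTPase that works with Hspb11 in the export of Hedgehog components and the BBSome from cilia, was the lowest of the core. It had 18.7 FPKM in the mutant and 24.1 in the control, 0.776 of the control value (0.689 to 0.874). Its partner Hspb11 stood at 14.1 FPKM in the mutant and 15.6 in the control, with an interval of 0.739 to 1.09 that included 1. Rabl5, another GTPase-like subunit, had 13.7 FPKM in the mutant and 17.2 in the control, 0.793 of the control value (0.684 to 0.919). The most abundant core gene was Ift74. Ift88, whose hypomorphic allele is a classic mouse model of defective cilia, did not differ beyond counting error, with 8.0951 FPKM in the mutant and 8.10 in the control. Ift52 stood at 19.1 FPKM in the mutant and 22.02 in the control, Ift46 at 17.04 and 19.3.

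The peripheral IFT-B subunits, which link the core to kinesin-2, were close to equal in the libraries. Their median log2 ratio was -0.03, and 5 of 6 lay above the median gene. Ift20, which also works at the Golgi apparatus, was the most abundant IFT gene with 29.98 FPKM in the mutant and 31.8 in the control. Ift80 had the highest ratio of the group, with 12.6 FPKM in the mutant and 12.5 in the control, 1.01-fold (0.933 to 1.09). Ift172 and Traf3ip1 had log2 ratios of 0.00. Cluap1 was the lowest, with 11.1 FPKM in the mutant and 13.5 in the control, 0.822 of the control value (0.719 to 0.939). Some exon bases of Cluap1, Ift57 and Ift88 overlap annotated genes on the opposite strand, and strandedness of the libraries is not given in the sources used here, so these values may hold reads of the neighbours. Cluap1 also shares 510 exon bases with the coding gene Gm20695 on its own strand, where strand would not separate the reads.

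**Figure D2:**
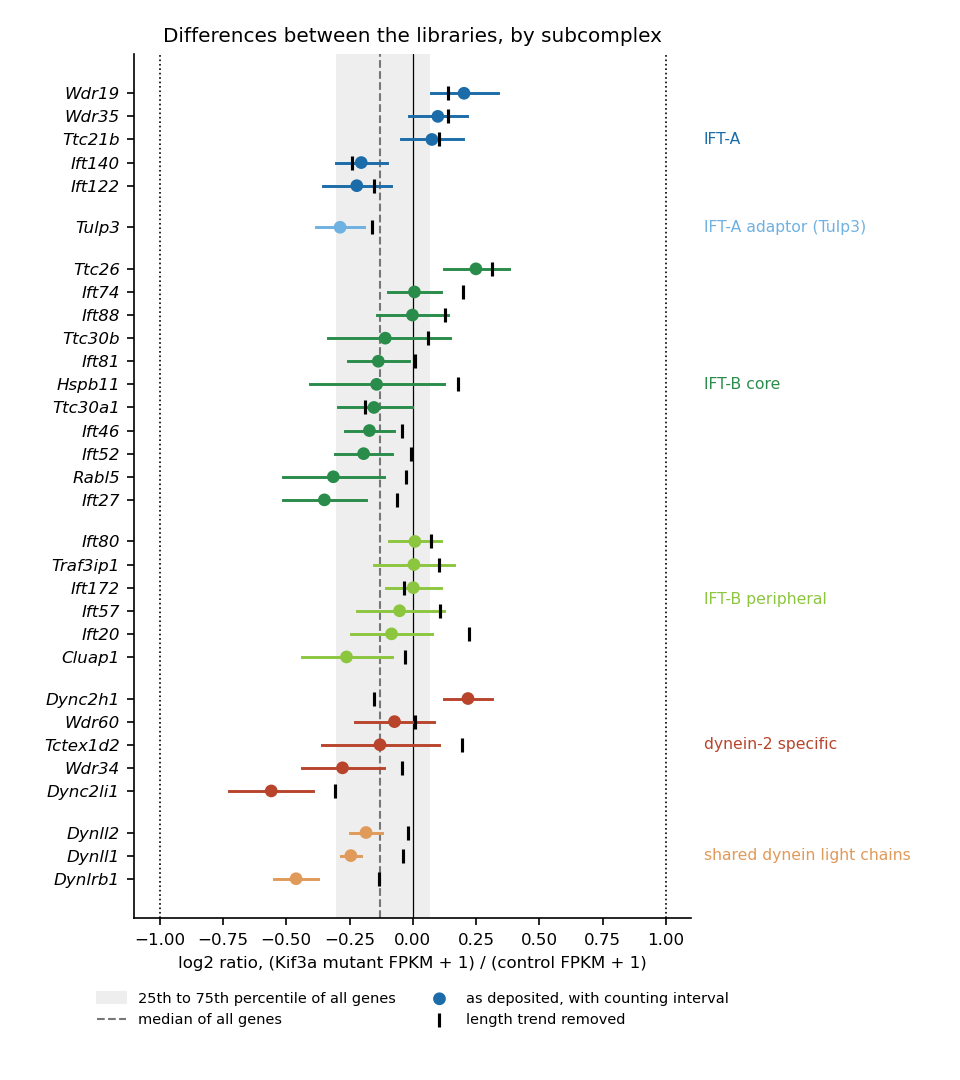
Log2 ratio of each gene, Kif3a mutant over control, with its 95% counting interval (circles and lines, coloured by subcomplex) and the ratio after removal of the length trend (black ticks). The dashed line is the median gene at -0.13, the grey band the 25th to 75th percentile of all genes, and the dotted lines mark 2-fold; no gene reaches them, and Dync2li1 lies lowest at -0.56.

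The subunits of dynein-2 held both the lowest ratio and one of the highest. The light intermediate chain gene Dync2li1 lies on chromosome 17 (84626499 to 84655564). It had 11.8 FPKM in the mutant and 17.9 in the control, a fold of 0.661 (0.583 to 0.748) on about 445 fragments in the mutant and 605 in the control. The gene has 1 transcript in the tables, so no assignment between isoforms entered the value, and 6.30% of all genes ranked at or below it. In all 10 settings of the values that were compared, Dync2li1 was below the median gene. The heavy chain gene Dync2h1, the motor subunit itself, went the other way, with 5.96 FPKM in the mutant and 4.98 in the control, 1.20-fold higher (1.11 to 1.29). This interval was moved onto the FPKM ratio, and the ratio of the fragments themselves, 2.24, lies outside it. Dync2h1 was above the median gene in 9 of the 10 settings and below the trend of genes of like length, at -0.15 once that trend was subtracted. Of the intermediate chains, Wdr34 stood at 10.04 FPKM in the mutant and 12.4 in the control, 0.811 of the control value (0.716 to 0.917), and Wdr60 at 5.11 and 5.42, with an interval of 0.828 to 1.07 that included 1. The light chain gene Tctex1d2, the most abundant of the specific subunits in both libraries, had 16.6 FPKM in the mutant and 18.2 in the control. The 5 specific subunits had a median log2 ratio of -0.13.

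All 3 light chains that dynein-2 shares were lower in the mutant than in the control and lay below the median gene, although on the scale of a common total FPKM all 3 ratios were above 0 and Dynll2 was 0.0047 above the median gene. Dynlrb1 is a roadblock-type chain of both cytoplasmic dyneins. It had 100.3 FPKM in the mutant and 138 in the control, 0.724 of the control value (0.682 to 0.769), at the 10.5th percentile of all genes. Dynll1, which also binds many proteins outside dynein, had 164 FPKM in the mutant and 195 in the control, 0.843 of the control value (0.820 to 0.867). Dynll2 had 60.2 FPKM in the mutant and 68.6 in the control, 0.878 of the control value (0.841 to 0.917). With these chains the dynein-2 median was -0.21, and the difference from the median of all IFT subunits was -0.12, or -0.03 without them.

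Dynll1 and Dynll2 encode closely related chains, and their coding sequences show how far the genes can be told apart by reads. Of 273 aligned positions 81.3% were identical, the longest identical run had 16 bases, and no word of 50 bases was shared. The first 60 coding bases are given from GENCODE M21 (GRCm38, minus strand), with capitals where the genes differ, at chr5:115300585-115300644 and chr11:87983944-87984003.
Dynll1: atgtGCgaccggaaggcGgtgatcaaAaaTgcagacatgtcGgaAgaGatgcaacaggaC
Dynll2: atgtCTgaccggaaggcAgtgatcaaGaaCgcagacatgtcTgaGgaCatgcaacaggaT

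The Ttc30 genes, which encode a core IFT-B subunit, are a different case. GENCODE M21 has 3 single-exon coding genes on the minus strand of chromosome 2, each with 1995 coding bases. Ttc30a1 and Ttc30a2 shared 95.2% of aligned positions, with an identical run of 460 bases, and 53.5% of the 50-base words of Ttc30a1 also occurred in Ttc30a2. Ttc30b was identical to Ttc30a1 at 1900 and to Ttc30a2 at 1901 of 2002 aligned positions. The deposited line named Ttc30a1 runs from 75976172 to 75981967 as 1 unspliced transcript of 5796 bases, and so takes in the coding sequences of both Ttc30a1 (75979743 to 75981737) and Ttc30a2 (75976172 to 75978166). Its 2.21 FPKM in the mutant and 2.57 in the control are thus a value for the pair, spread over a length that includes the sequence between them. Ttc30b stood at 1.31 FPKM in the mutant and 1.496 in the control, with an interval of 0.655 to 1.18. These were the lowest levels of all 31 genes, and reads from long shared runs could be placed with any of the copies. The 60-base stretch of the coding sequence with the most differences among the 3 copies is bases 559 to 618. Capitals mark positions where at least 1 copy differs (Ttc30a1 at chr2:75981120-75981179, Ttc30a2 at chr2:75977549-75977608 and Ttc30b at chr2:75937790-75937849).
Ttc30a1: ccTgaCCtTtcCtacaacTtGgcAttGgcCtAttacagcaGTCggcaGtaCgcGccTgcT
Ttc30a2: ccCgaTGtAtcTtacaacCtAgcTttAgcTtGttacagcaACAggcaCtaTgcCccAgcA
Ttc30b: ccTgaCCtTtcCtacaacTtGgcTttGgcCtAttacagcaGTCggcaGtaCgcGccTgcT
In this stretch Ttc30b differs from Ttc30a1 only in the A of gcAttG, which is T in Ttc30b. The stretch thus separates Ttc30a2 from the other copies, but hardly Ttc30b from Ttc30a1.

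Differences between the libraries followed transcript length, and the transport genes shared this. Over the 31 genes the Spearman correlation of the log2 ratio with the length of the most abundant transcript was 0.589, and over all 12259 genes it was 0.407; genes are not replicates, and all points share the same libraries. All 7 transport genes of up to 1500 bases had ratios below 0, with a median of -0.31, against -0.27 for all genes of that length. The 13 of over 1500 and up to 3500 bases had a median of -0.17, against -0.18. The 11 longer ones had a median of 0.01, as all genes of that length did, and only 4 of them were below 0. IFT-A, with a median transcript length of 4468 bases, and IFT-B, with 2613 bases, differed in this respect. The IFT-A median exceeded the IFT-B median by 0.18 on the log2 scale, and by 0.05 once a running median over genes of like length had been subtracted. The 95% counting half-width of the 0.18 was 0.27, so this gap lay within counting error. The gap also shrank without a step for length, to 0.04 with Ift43 and 0.02 with a minimum mean of 5 FPKM. With the most abundant transcript alone it was -0.05. With the other pseudocounts, the common scalings and fragment numbers it was 0.12 to 0.23. After subtraction of the running median, the median of all 31 genes was -0.01, Dynlrb1 had -0.14 in place of -0.46, and Ift27 had -0.06 in place of -0.35. Dync2li1 kept the lowest value at -0.31, Ift140 followed with -0.24, and Ttc26 kept the highest at 0.31. The part of length in each single difference was not tested.

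**Figure D3:**
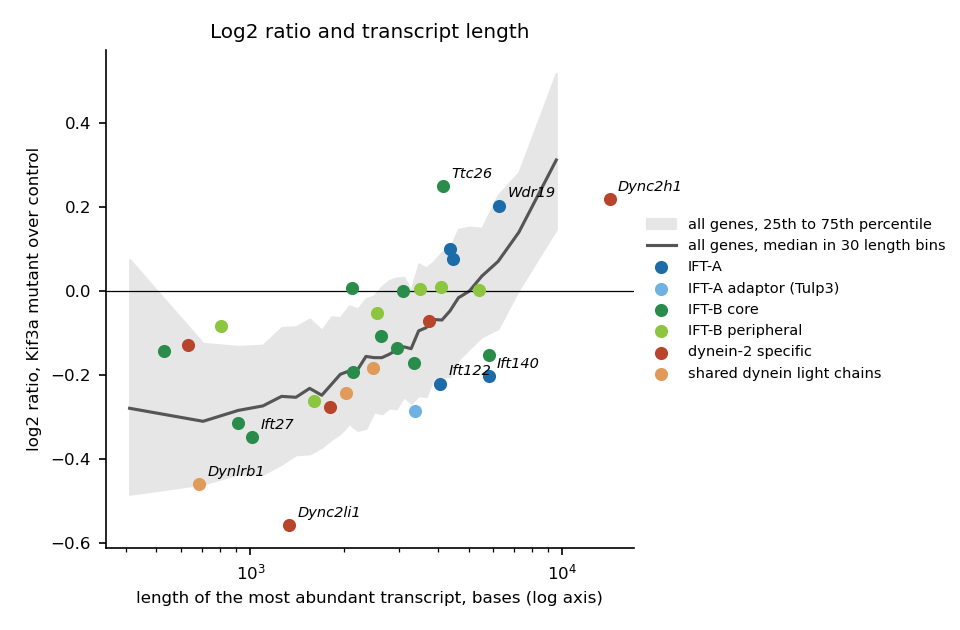
Log2 ratio of the 31 genes, Kif3a mutant over control, against the length of the most abundant transcript (log axis), coloured by subcomplex, with the median and the 25th to 75th percentile of all genes in 30 bins of length. Short genes lie low and long genes high, as the band of all genes does; Dync2li1 lies far below the median of genes of like length and Ttc26 far above it.

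Dync2h1, with a transcript of 14156 bases on the minus strand of chromosome 9 from 6928503 to 7177230, held a contrast between its ends that followed the same direction within a single gene. Its full-length transcript stood at 5.29 FPKM in the mutant and 1.72 in the control. A transcript of 4676 bases that covers only the 3′ part of the gene stood at 0.585 FPKM in the mutant and 2.56 in the control. The full-length transcript thus held 88.8% of the summed FPKM of the gene in the mutant and 34.5% in the control. Coverage summed over the full-length and the 3′ transcript was 25.3 in the mutant and 17.02 in the control, a ratio of 1.49. Summed over the full-length and a 5′ transcript of 4615 bases it was 23.2 in the mutant and 6.84 in the control, a ratio of 3.39. The difference in fragments was larger than that in summed FPKM. Dync2h1 had about 2195 fragments in the mutant and 981 in the control, a ratio of 2.24 (2.07 to 2.41). Per 1000000 fragments of the library, without regard to length, the gene had 89.6 in the mutant and 39.8 in the control. On this scale Dync2h1 alone of the 31 genes was at least 2-fold higher, against 1.4% of all genes, and 0 of the 31 were at least 2-fold lower, against 1.28%. Among the 64 genes with transcripts of over 12000 bases the same threshold was passed by 29.7%, and their median log2 ratio on this scale was 0.88, while Dync2h1 had 1.151. Dync1h1, the heavy chain of cytoplasmic dynein-1 with a transcript of 14398 bases, had 26.2 FPKM in the mutant and 14.6 in the control, 1.79-fold higher (1.73 to 1.85). In FPKM the median log2 ratio of the 64 genes of over 12000 bases was 0.62, against 0.80 for Dync1h1 and 0.22 for Dync2h1. Once the length trend was subtracted, the log2 ratio in FPKM was 0.43 for Dync1h1 and -0.15 for Dync2h1. That trend is flattened at such lengths, so the subtracted value was below the median of these 64 genes.

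Partial transcripts were then compared in all transport genes. In this comparison, chosen after the Dync2h1 values were seen, a transcript was called partial if it shared 1 end of the gene within 100 bases and ended at least 1000 bases inside at the other. Transcripts that share only the 3′ end were listed for 8 of the 31 genes, and their share of the FPKM of the gene was lower in the mutant for 6, or for 5 of 7 without Dync2h1, the gene that prompted the comparison. The share was 0.00188% in the mutant and 16.03% in the control for Ift81, 0.000427% and 11.1% for Ift140, 3.20% and 8.37% for Ift172, 11.47% and 23.3% for Wdr60, and 31.9% in the mutant and 39.7% in the control for Traf3ip1. Ift80 and Dynll2 went the other way, with 1.19% in the mutant and 0.285% in the control for Ift80, and 99.7% and 99.5% for Dynll2. The Dynll2 transcript that the rule calls partial is the main one of the gene, at 59.4 FPKM in the mutant and 67.6 in the control. It has 2476 bases, more than the 2270 of the transcript that spans the gene, so its share does not describe a fragment. Transcripts that share only the 5′ end held at least 0.1% of the FPKM in either library for 10 genes, and in all 10 the share was higher in the mutant, as it was in all 9 without Dync2h1. It was 6.75% in the mutant and 8.06e-05% in the control for Ift172, 10.5% and 4.61% for Wdr19, and 6.15% and 2.44% for Wdr35. Among all genes in which such transcripts held at least 0.1% of the FPKM in either library, the share of 3′ partial transcripts was lower in the mutant for 57.4% of 2174 genes, and that of 5′ partial transcripts higher for 79.6% of 2848. For those of over 8000 bases these values were 83.2% and 85.5%. The shares are estimates by the tool that assigned fragments to overlapping transcripts, not direct counts.

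**Figure D4:**
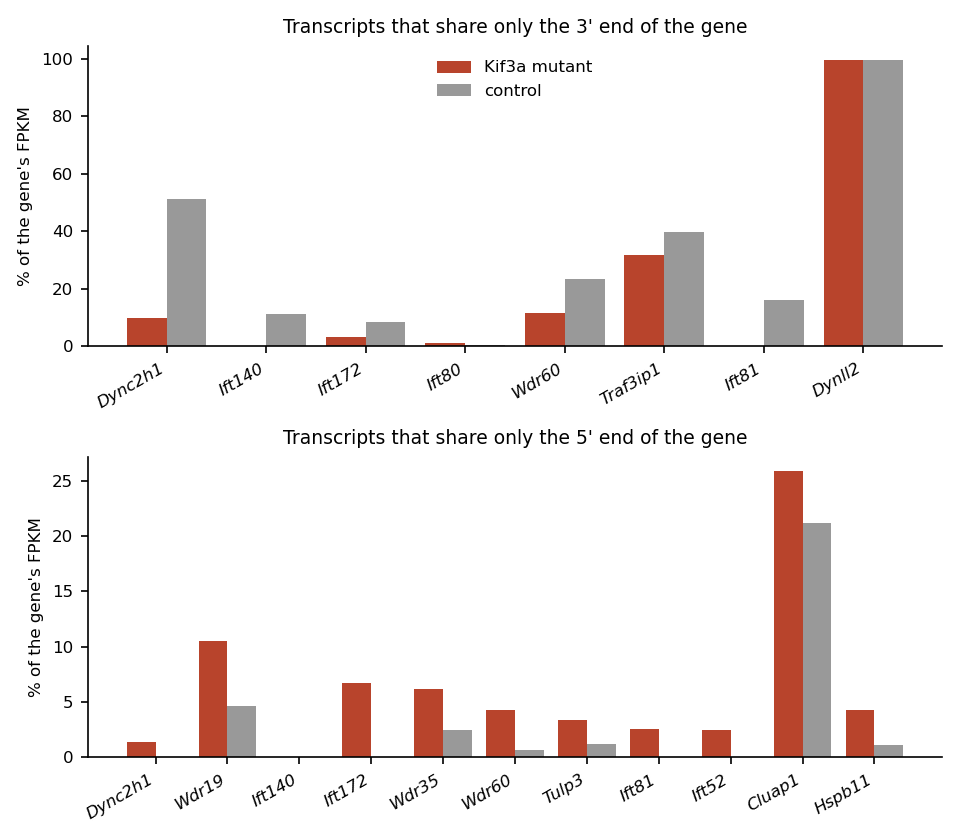
Share of the summed FPKM of each gene, in percent, held by transcripts that share only the 3′ end (upper panel) or only the 5′ end (lower panel) of the gene, in the Kif3a mutant library (red) and the control library (grey), ordered from the longest to the shortest main transcript. For Dync2h1 the 3′ share was 9.83% in the mutant and 51.3% in the control, and the 5′ shares were higher in the mutant in each gene where they reached 0.1%.

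Motors and regulators outside the IFT and dynein-2 complexes gave a frame for these values. Of 5 kinesin-2 genes 4 passed the filter, and none of them differed by 2-fold on the log2 ratio used here; Kif3a had -0.96. Its partners stood close to the median gene or lower, with Kif3b at 6.01 FPKM in the mutant and 6.16 in the control, Kif3c at 4.32 and 5.78, and the most abundant, the adaptor Kifap3, at 27.5 and 32.04. The log2 ratio of Kif3c was -0.35, and -0.47 without the length trend. On the latter scale Kif3b had -0.06 and Kifap3 -0.15. All 12 genes of dynactin, the cofactor of dynein-1, had negative ratios, against 67.9% of all genes, and 9 were below the median gene. Their median of -0.21 became -0.05 without the length trend and -0.09 on fragment numbers. The lowest of them, Actr1b, had 40.2 FPKM in the mutant and 53.5 in the control, and the most abundant, Capzb, 124 and 152. The 8 measured genes of cytoplasmic dynein-1 had a median of 0.03, or 0.14 without the length trend, the most abundant being Dync1i2 at 63.02 FPKM in the mutant and 68.4 in the control. Of 19 cargo proteins and regulators of IFT listed, 16 were found by symbol and 15 passed the filter, 11 of them above the median gene, with a median of 0.07. The kinase Ttbk2, which starts ciliogenesis at the basal body, had the largest difference, with 6.21 FPKM in the mutant and 4.64 in the control, and its transcript has 11151 bases. Its log2 ratio of 0.35 became 0.01 without the length trend. The receptor gene Gpr161, which followed with 0.34, had 0.55 without it, the largest of the list on that scale, at 8.79 FPKM in the mutant and 6.71 in the control. The most abundant, Arl3, stood at 60.2 FPKM in the mutant and 62.995 in the control. Genes of the motile axoneme were low. Of 11 listed, 8 were found by symbol, and 3 of these passed the filter, Ccdc39, Ccdc40 and Rsph9, none above 2.76 FPKM in either library. Rsph9 had 1.27 FPKM in the mutant and 2.76 in the control, 0.460 of the control value (0.291 to 0.714). Ccdc39 went the other way with 1.99 and 0.832, 2.39-fold higher (1.81 to 3.17). With the pseudocount their log2 ratios were -0.73 and 0.71, and that of Ccdc40 was -0.15. Foxj1, the master regulator of motile cilia, stood at 0.619 FPKM in the mutant and 0.463 in the control.

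RFX factors, known regulators of ciliary genes that bind the X-box, were also measured. Rfx7, the most abundant, stood at 19.95 FPKM in the mutant and 11.9 in the control, and Rfx3, a regulator of ciliogenesis, at 6.10 and 3.67. Their transcripts have 8000 and 9187 bases, and their log2 ratios of 0.70 and 0.60 became 0.51 and 0.32 without the length trend. Rfx1 had 7.90 FPKM in the mutant and 6.29 in the control, while Rfx2 was lower at 1.66 and 2.29. The list had a median of 0.29 over 5 measured genes, 0 of them past 2-fold.

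Promoters of the listed genes were searched for X-box forms, spelled GTNNCC followed by 0 to 3 further bases and NGNAAC, on both strands. RefSeq promoters (GRCm38.p6, 250 bases before to 50 after the start) were matched for 27 of the 34 names. An X-box form was found in 5 of the 27 (18.5%), against 5.94% of 27025 genes and 6.70% of 8510 genes over the expression filter. The half-site GTTGCC alone was found in 12 of the 27 (44.4%), against 14.1% and 14.7%. Some half-sites lie within the X-box forms. The matches are shown in capitals within 30 bases, read along the strand of the gene, to let the copies be compared.
Ttc26, chr6:38381483-38381512, plus strand: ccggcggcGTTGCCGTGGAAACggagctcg
Ttc30a2, chr2:75978182-75978211, minus strand: gttggcttGTTGCCATGGGAACaagcacac
Ift57, chr16:49699226-49699255, plus strand: gccctgcgGTTGCCTGGTAACggtggggac
Ift22, chr5:136908109-136908138, plus strand: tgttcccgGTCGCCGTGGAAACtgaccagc
Ift74, chr4:94614478-94614507, plus strand: cggtgaccGTTGCTAGGATACgcggcgtcg
The match of Ift74 is the motif on the opposite strand. The 5 matches shown began 60 to 5 bases before the annotated start. Ift22 and Ift57 each held 1 further match, which began 63 bases before the start for Ift22 and 87 for Ift57. The 4 of these genes with a value of their own did not share a direction, with log2 ratios of 0.25 for Ttc26, 0.01 for Ift74, -0.05 for Ift57 and -0.31 for Rabl5, the symbol used for Ift22. A match is a description of letters and does not show that a factor binds there.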

How the data were processed

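RNA was measured in 1 library of 10 pooled Kif3a f/f ; Wnt1-Cre mandibular prominences and 1 of 10 control ones. Per the file headers, the authors deposited FPKM, a coverage signal and a length for each of 59120 transcripts under UCSC identifiers; the tables' names give Cufflinks as the tool. The sources used here do not give its version, the aligner or strandedness. Per the submitters' processing notes the build was mm9. However, 51.8% of deposited starts plus 1 equalled a GENCODE M21 (GRCm38) transcript start of the same symbol, so coordinates are given on GRCm38, 1-based. Lines displaced by spaces in a name (65 per table) were left out, and 59055 transcripts remained. None of the transcripts of the members had a status other than OK. Among all transcripts 404 in the control and 6 in the mutant did, and these were kept in the values of all genes.

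The FPKM of a gene is the sum over all transcripts with its symbol. Genes whose FPKM averaged 1 or more were compared by log2 ratio with a pseudocount of 1 FPKM, which understates differences of low genes; 2-fold means a log2 ratio of 1 or more in size. There is no test, since each condition has 1 library. Fragments were approximated as coverage times length over the yield of 1 fragment, about 153 bases in the mutant and 156 in the control (median of values between 80 and 220 bases among genes with 1 transcript of over 1500 bases). Intervals and fragment numbers are therefore approximate and cover counting error only. The length trend is a running median over 501 genes ordered by the length of the most abundant transcript. At the long end it is flattened, which concerns the longest genes, among them Dync2h1 and Dync1h1. The log2 ratio and intervals were tested on simulated counts in which FPKM followed the fragments. That check does not cover the move of intervals onto the FPKM ratio or the assignment of fragments to transcripts. Calculations used Python 3.11.15, pandas 2.3.3 and scipy 1.17.1.

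Named genes were, in each subcomplex, the highest, the lowest and the most abundant member, the paralogue sets, and in each comparison list the most abundant gene and the one with the largest difference. The members, lists and rules were chosen with earlier results of these data known. Other settings were a pseudocount of 0.1 or 5; no filter; a filter at a mean of 5; centring; a common 75th percentile or total; removal of the length trend; the most abundant transcript alone; and no shared light chains. Fragments per 1000000, Ift43 under its older symbol and the removal of the length trend together with the shared chains were added after seeing the data.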

Additional observations from a re-analysis of the deposited data

How the results depend on the processing

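Every measured member kept a difference under 2-fold with pseudocounts of 0.1 and 5, without the filter, with a minimum mean of 5 FPKM, and under each scaling. The exception was Dync2h1, the 1 member past 2-fold with the most abundant transcript alone (log2 ratio 1.21) and, again as the 1 member, per 1000000 fragments (1.151). The median log2 ratio of all members was -0.0052 after centring on the median gene, -0.015 with a common 75th percentile, 0.41 with a common total FPKM (median gene 0.39), 0.11 with a common total without transcripts under 200 bases (median gene 0.10), -0.0057 without the length trend and -0.015 per 1000000 fragments. The IFT-A median was 0.21 after centring, 0.59 and 0.31 with the common totals, and turned to -0.064 with the minimum of 5 FPKM, to -0.064 with Ift43 and to -0.11 with the most abundant transcript alone. On that last setting IFT-A lay below IFT-B. The IFT-B median was 0.41 with a common total FPKM. The dynein-2 median was -0.084 after centring, -0.080 with a common 75th percentile, 0.37 and 0.049 with the common totals, -0.041 without the length trend, -0.13 without the shared light chains, -0.042 without both, and -0.078 per 1000000 fragments. Centring subtracts the same value from every gene, and a common total or percentile rescales each library as a whole. Those shifts, and the ones of lists with fewer or more genes, are therefore set by construction. The cause of the other shifts was not tested. No paired analysis was possible because each group has 1 library. Depth limits Ttc30b most, with about 94 fragments in the mutant and 97 in the control, and its interval spans 0.655 to 1.18.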
